A study of Mus musculus with 3 samples.

Results

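The Hox cluster genes were examined in 3 MethylRAD libraries of mouse E14Tg2A cells, an established embryonic stem cell (ESC) line. The genes described here are 38 of the 21938 protein-coding genes of the GENCODE M21 annotation of GRCm38, chosen by their names, Hoxa, Hoxb, Hoxc or Hoxd followed by a number. Each of the 4 clusters was taken from 5 kb before its first gene to 5 kb after its last gene, and together they contained 943 of the 1026125 CCGG sites that were listed in at least 1 library. The undifferentiated sample was ESCs kept with leukemia inhibitory factor (LIF), on day 0 and without pargyline. The untreated sample was the same line on day 7 of differentiation, after LIF withdrawal and retinoic acid addition, and the treated sample was differentiated in the same way for 7 days with 3 mM pargyline, an inhibitor of the histone demethylase LSD1. The paper states that the pargyline treatment began some hours before differentiation was induced. Each condition was measured in 1 library. The spread between replicates is therefore unknown, and no test was made. Where 3 values follow each other, they are in the order undifferentiated, untreated and treated sample unless named otherwise.

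Hox genes encode homeodomain transcription factors that give cells their position along the body axis. Their order in a cluster follows the order of their domains along the embryo, with low paralog numbers acting toward the head and high numbers toward the tail and the limb ends. In ESCs the clusters are CpG-rich, largely free of DNA methylation and held silent by Polycomb proteins, and retinoic acid is a classical activator of their head-side genes.

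MethylRAD uses the enzyme FspEI, which recognizes a methylated cytosine after another cytosine and releases a short fragment around it. The number of reads at a CCGG site therefore increases with methylation of its CpG, although 5-methylcytosine and 5-hydroxymethylcytosine are not told apart. A site is listed only with 5 or more reads, so a site absent from a list can have had up to 4 reads. A library of many cells does not separate methylation in more of the cells from methylation of more copies per cell. Expression was not measured, so the identity of the cells was not checked, and the labels and methods do not say whether cultures were pooled.

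The 3 lists contained 31614085, 36654600 and 25767119 CCGG reads. Levels are given as scaled reads, which are the reads at the sites per 1000000 CCGG reads of the same list, and a ratio is a ratio of scaled reads. The CCGG reads were 62.0%, 49.7% and 38.3% of the mapped reads, so the choice of the divisor matters for every ratio. With mapped reads as the divisor, every ratio of the untreated to the undifferentiated sample is multiplied by 0.802 and every ratio of the treated to the undifferentiated sample by 0.618, and treated ratios under 1.62 then turn to below 1. The median log2 ratio over all protein-coding genes moved in the same way, from -0.01 to -0.33 without and from 0.002 to -0.69 with pargyline. Intervals are 95% intervals that cover counting error only, since PCR copies of a fragment are counted as separate reads.

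The following 5 sites were among the 6 with the most day 7 reads of those absent from the undifferentiated list and present in both day 7 lists. They are shown as the reference sequence of the plus strand of GRCm38, 30 bases each, with the CCGG motif in capitals and the first base of the motif in the name, because the motif and its surroundings decide where FspEI cuts.
HoxD site 74727010, chr2:74726997-74727026: ggaaattgggaccCCGGggatagaattaga
HoxB site 96292979, chr11:96292966-96292995: catccttttgaatCCGGaggagggcaaaat
HoxB site 96256212, chr11:96256199-96256228: gaacattaagaagCCGGaggagctgtaatg
HoxC site 103010840, chr15:103010827-103010856: acctaactcggcgCCGGcgcatcgagatcg
HoxC site 103010316, chr15:103010303-103010332: aagtctagttaggCCGGagaaaaggaaggg

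The HoxD site at 74727010 lies in a UTR of Hoxd4, 64 bp from a transcription start, and had 9 untreated and 48 treated reads. The HoxB site at 96292979, in a UTR of Hoxb6, had 12 and 36 reads. The HoxC site at 103010840, in a coding exon of Hoxc6 and within the span of Hoxc5, had 5 and 39 reads. The sites are shown as examples, and no tally of directions is drawn from them.
The HoxC site at 103010316, in an intron of Hoxc6, had 16 and 25 reads. The HoxB site at 96256212, between Hoxb13 and Hoxb9 and 15245 bp from the nearest Hox start, had 25 and 21 reads, which is 0.682 and 0.815 scaled reads.

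Among sites listed in only 1 day 7 sample and in no other list, the 3 with the most reads were all sites of the treated sample.
HoxA site 52208326, chr6:52208313-52208342: gtgcaggtagtccCCGGggcccctctgctt
HoxA site 52254169, chr6:52254156-52254185: ggcataaatctcgCCGGgccttttagatag
HoxB site 96293248, chr11:96293235-96293264: ggggcctatgaggCCGGttttatgttgctt
They had 35 reads in a coding exon of Hoxa6, 32 reads between Hoxa11 and Hoxa13, and 32 reads in an intron of Hoxb6. At each of them the other libraries had at most 4 reads.

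In the opposite direction, 4 sites had the most reads among those listed in the undifferentiated sample alone.
HoxC site 102985388, chr15:102985375-102985404: aacactgaggggaCCGGcactaagttctga
HoxB site 96290527, chr11:96290514-96290543: tttcacacagtccCCGGctccatgcccaga
HoxB site 96322297, chr11:96322284-96322313: acaaaggaactagCCGGtgccatagctcaa
HoxA site 52219110, chr6:52219097-52219126: aaggcggcaatatCCGGgatccactttatg
They had 39 reads in an intron of Hoxc5, 37 reads between Hoxb7 and Hoxb6, 30 reads between Hoxb4 and Hoxb3, and 29 reads in an intron of Hoxa7. All 4 lay in windows of low CpG content, as defined below.

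The 4 clusters, HoxA at chr6:52150590-52265880, HoxB at chr11:96189316-96373256, HoxC at chr15:102916103-103041852 and HoxD at chr2:74663310-74770142 of GRCm38, contain 1416 CCGG motifs. Of these motifs, 36.2% (Wilson interval, 33.8 to 38.8%), 38.1% (35.6 to 40.6%) and 60.5% (57.9 to 63.0%) were listed. The intervals of the undifferentiated and untreated samples overlapped, whereas the treated sample lay above both. Over the whole genome, the shares were 52.1%, 52.9% and 53.4%, so the Hox clusters were below the genome in the first 2 samples and above it in the treated sample. In the 100 kb on each side of the clusters, 64.9%, 68.5% and 71.9% of the 663 CCGG motifs were listed.

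These shares correspond to 515, 542 and 859 sites, and a listed Hox site had a median of 14, 12 and 14 reads. The higher number in the untreated than in the undifferentiated sample depended on depth. After random thinning of the deeper libraries to the total of the treated one, the numbers were 463, 459 and 859.

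**Figure D1:**
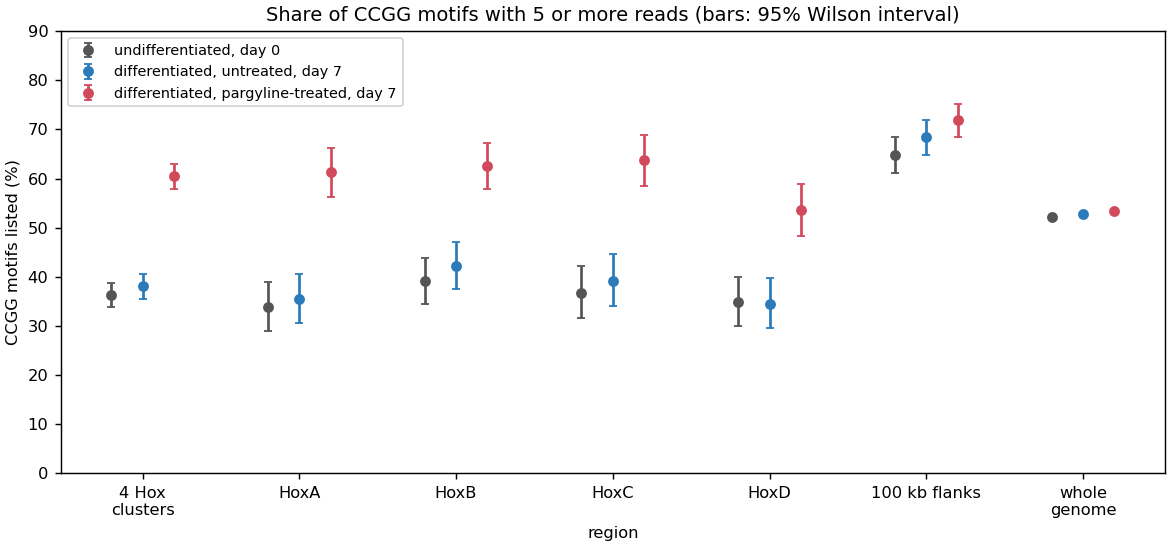
The share of CCGG motifs with at least 5 reads, in percent, is plotted for the 4 Hox clusters together, for each cluster, for the 100 kb flanks and for the whole genome, with 1 point per library and 95% Wilson intervals as bars. The treated sample is at 60.5% in the Hox clusters against 36.2% and 38.1% in the other samples, while the genome points lie between 52.1% and 53.4%.

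The Hox clusters had 10844, 11384 and 15497 CCGG reads, which is 343, 311 and 601 scaled reads. The untreated sample was 0.905 times the undifferentiated sample (interval, 0.882 to 0.930), and the treated sample was 1.75 times the undifferentiated sample (1.71 to 1.80) and 1.94 times the untreated sample (1.89 to 1.98). The treated sample had the most Hox reads, with the smallest CCGG total of the 3 lists and a number of mapped reads between those of the others. With mapped reads as the divisor, the 3 ratios were 0.726, 1.08 and 1.49. The ratios of all genes are multiplied by the same factors, so the position of the Hox clusters relative to the other genes is the same with either divisor. In the 100 kb flanks, the ratios with CCGG scaling were 0.957, 1.06 and 1.11.

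Each of the 4 clusters had its highest level in the treated sample. HoxA had 70.5, 62.4 and 146 scaled reads, which is 2.07 times the undifferentiated level with pargyline (interval, 1.97 to 2.19). HoxC had 82.4, 79.6 and 154 scaled reads (1.87 times, 1.78 to 1.97), and HoxD had 67.9, 60.8 and 122 (1.79 times, 1.70 to 1.90). HoxB differed least, with 122, 108 and 179 scaled reads (1.47 times, 1.41 to 1.53), and its ratio turned to 0.906 with mapped reads as the divisor, whereas those of HoxA, HoxC and HoxD were then 1.28, 1.15 and 1.11. The untreated sample was 0.883 to 0.965 times the undifferentiated sample in the 4 clusters, and for HoxC the interval of 0.915 to 1.02 included 1.

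Of the 943 Hox sites, 374 were listed in all 3 samples and 276 in the treated sample alone. The latter were 29.3% of the listed Hox sites, against 5.66% of the listed CCGG sites of the genome. Sites of the undifferentiated sample alone numbered 38 (4.03%, genome 5.31%) and those of the untreated sample alone 30 (3.18%, genome 3.07%). Shared by the day 7 samples only were 122 (12.9%, genome 6.46%), by the undifferentiated and treated samples only 87 (9.23%, genome 2.98%) and by the undifferentiated and untreated samples only 16 (1.70%, genome 4.65%). The treated-only Hox sites were shallow, with a median of 9 and a maximum of 35 reads, and 121 of them had 10 or more reads.

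Compared with the undifferentiated sample, the untreated sample listed 152 additional Hox sites of 667 listed in either, which is 22.8%, where 10.1% of CCGG sites of the genome were listed only in the untreated sample. It lacked 125 sites, or 18.7%, against 8.79% in the genome. The share of sites listed in only 1 of these samples was thus above that of the genome in both directions. Listed Hox sites were also shallower, with a median of 14, 12 and 14 reads against 26, 30 and 23 in the genome. They lay nearer to the minimum of 5 reads, and how far this raised the shares was not tested. The treated sample listed 398 additional Hox sites of 913 listed in either (43.6%, genome 12.5%) and lacked 54 (5.91%, genome 10.3%). Between the day 7 samples, 363 of 905 Hox sites were listed only in the treated sample (40.1%, genome 9.12%) and 46 only in the untreated sample (5.08%, genome 8.15%). Additional sites outnumbered missing ones in the treated sample, in the Hox clusters by a wider margin than in the genome.

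At the 374 Hox sites with reads in every list, the log2 ratio to the undifferentiated sample had a median of -0.06 without and 0.63 with pargyline, and over the 737469 such sites of the genome it had a median of 0.08 and 0.07. In the treated sample 144 of them were at least 2 times higher than in the undifferentiated sample (38.5%, genome 19.4%) and 24 at least 2 times lower (6.42%, genome 14.9%). In the untreated sample 34 were higher (9.09%, genome 15.2%) and 60 lower (16.04%, genome 14.1%) by this measure, the second share being close to that of the genome. With CCGG reads as the divisor, the higher Hox level of the treated sample was therefore also present at sites with reads in every library. With mapped reads, the treated median of 0.63 turns negative. The genome median of 0.07 falls by the same amount, so the Hox median stays above it.

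The deepest site of each cluster did not follow this pattern throughout. The site with the most reads in HoxA, at 52213951 and 836 bp from a start of Hoxa3, had 79, 65 and 77 reads. In HoxB it was at 96228933, between Hoxb13 and Hoxb9, with 172, 143 and 71 reads. In HoxC it was at 103003344, in an intron of Hoxc6 within the span of Hoxc5, with 64, 126 and 61 reads. The HoxB site was lowest in the treated sample, and the HoxC site was highest in the untreated sample. The HoxD site at 74764347, in a coding exon of Hoxd1, had 80, 92 and 89 reads.

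**Figure D2:**
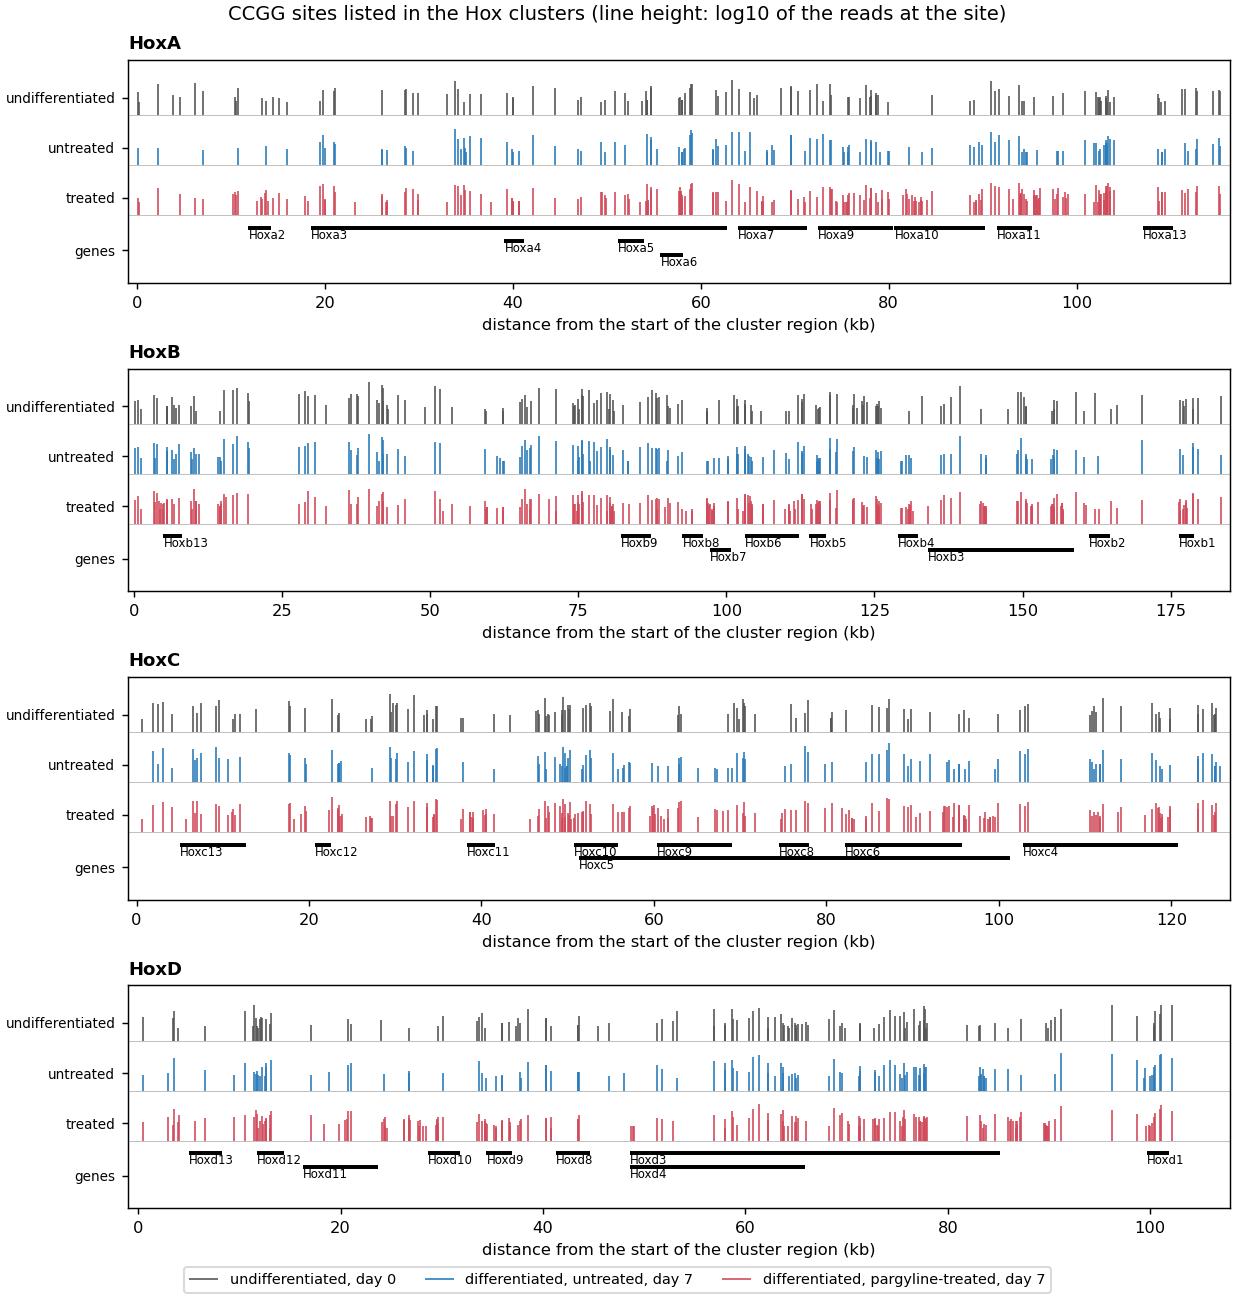
Each vertical line is a listed CCGG site, drawn at its distance in kb from the start of the cluster region, with a height that follows the log10 of its reads, for the undifferentiated, untreated and treated library from top to bottom, and with the 38 genes as black bars. Lines are densest in the treated rows, where 859 sites are drawn against 515 and 542 in the other rows.

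Stretches in which the treated sample alone had listed sites were found in all 4 clusters, and they were chosen after the values were seen. The longest run by number of sites, from chr15:102954730-102956668, lay in Hoxc11, a gene of the lumbosacral region. It had 12 listed sites among 20 CCGG motifs, with 6 to 18 reads each and 122 reads in all, and no motif in between was listed in another sample. A run of 9 sites at chr2:74690198-74692861 reached from before Hoxd10 into the gene, with 90 reads. Runs of 8 sites lay in Hoxa10 (62 reads), in Hoxc5 (58 reads) and between Hoxd3 and Hoxd1 (89 reads). Neighbouring sites can be read from the same fragment, and in the treated sample 20 pairs of listed Hox sites were at most 10 bp apart, 10 of them with equal counts, so the sites of a run are not independent.

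CpG content was taken in windows of 500 bp. A window was low where observed CpGs were less than 0.48 of those expected from its base composition, high where they were over 0.75 and more than 0.55 of the bases were G or C, and intermediate otherwise. Of the Hox CCGG motifs, 23.9% lay in high, 40.0% in intermediate and 36.1% in low CpG windows, against 5.76%, 13.4% and 80.8% in the genome. Of the 339 Hox motifs in high CpG windows, 6.78%, 12.4% and 24.8% were listed (interval of the last, 20.5 to 29.6%). In the genome these shares were 3.21%, 9.20% and 11.4%. The treated ratio of this class was 5.12 (4.36 to 6.04) in the Hox clusters and 3.55 in the genome, and the untreated ratio was 1.67 (1.40 to 2.01) and 2.34. CpG-rich motifs were thus listed more often on day 7 both in the Hox clusters and in the genome. HoxC had few listed motifs of this class without pargyline, with 1.82%, 1.82% and 30.9% of 55 motifs and 5, 10 and 138 reads.

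The 566 Hox motifs of intermediate CpG windows had the widest gap to the genome in the share listed with pargyline. They were listed at 30.4%, 34.8% and 68.2% (64.2 to 71.9%), whereas in the genome 23.5%, 27.4% and 30.9% were listed. Their scaled reads in the treated sample were 2.60 times those of the undifferentiated sample (2.48 to 2.72), where the genome ratio was 1.15. In the 511 Hox motifs of low CpG windows, 62.2%, 58.7% and 75.5% were listed, against 60.4%, 60.2% and 60.1% in the genome. In the flanks, the 119 intermediate motifs were listed at 37.8%, 48.7% and 63.9%, so a higher share in the treated sample was also seen next to the clusters in this class.

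**Figure D3:**
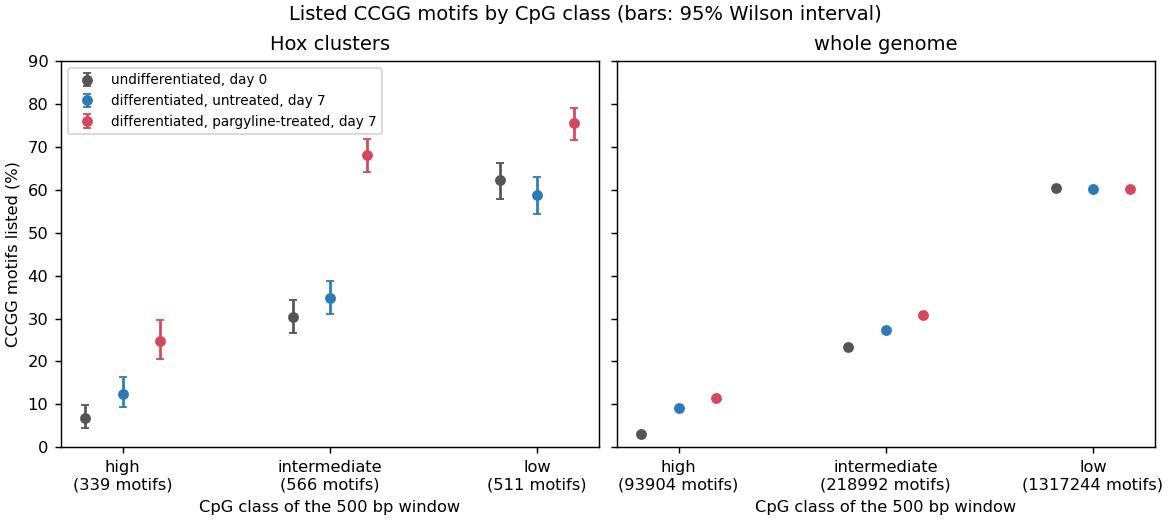
The share of CCGG motifs listed, in percent, is plotted by CpG class of the 500 bp window for the Hox clusters (left) and the whole genome (right), with 1 point per library and 95% Wilson intervals as bars. The intermediate class of the Hox clusters reaches 68.2% in the treated sample, against 30.9% for the same class in the genome.

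Distance from the transcription starts of the 38 genes sorted the motifs in a similar way. Within 500 bp of a start, 17.5%, 18.4% and 40.1% of 337 motifs were listed, and the treated sample had 2.58 times the scaled reads of the undifferentiated sample (interval, 2.38 to 2.79). Farther than 5 kb from any start of these 38 genes, 47.7%, 45.5% and 65.3% of 277 motifs were listed, and the ratio was 1.26, which is below 1 with mapped reads as the divisor. The motifs near starts were the least often listed in each library and had the larger ratio. In coding exons of the 38 genes, the treated sample was 3.59 times (3.29 to 3.91) and the untreated sample 1.29 times (1.18 to 1.43) the undifferentiated sample, whereas outside the spans of the 38 genes the treated ratio was 1.42, also below 1 with mapped reads as the divisor, and the untreated ratio was 0.805. CpG content and distance from a start were tallied apart and not crossed, so their parts were not separated.

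Within 1 kb of their starts, 8 of the 38 genes had no listed site in the undifferentiated sample, namely Hoxb4, Hoxc5, Hoxc6, Hoxc8, Hoxc9, Hoxc12, Hoxd11 and Hoxd13, where 30% of the 19535 genes with a CCGG motif there had none. In the untreated sample 5 of the 38 had none (Hoxb5, Hoxc5, Hoxc12, Hoxd10 and Hoxd13), against 20.7% of genes, and in the treated sample only Hoxc12, with 4 motifs there, against 19.1%. The genes were not matched by their number of motifs near starts, which reached 42 at Hoxd3. These shares are therefore not like for like. Around the Hoxc9 start, 0, 3 and 10 sites were listed with 0, 25 and 151 reads. Around the Hoxc6 start there were 0, 2 and 5 sites with 0, 28 and 109 reads. Hoxb5 and Hoxd10 differed from these by having no listed start site in the untreated sample only. Hoxb5 had 1, 0 and 3 sites with 10, 0 and 29 reads, and Hoxd10 had 1, 0 and 9 sites with 6, 0 and 96 reads.

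For single genes, reads were summed from 1 kb before to 1 kb after the gene. All 38 genes had at least 1 listed site in each library. The windows overlap, since the annotated span of Hoxa3 covers Hoxa4, Hoxa5 and Hoxa6, that of Hoxc5 covers Hoxc9, Hoxc8 and Hoxc6 and part of Hoxc10, and those of Hoxd3 and Hoxd4 overlap, so a site can count for more than 1 gene. Over the genes, the lowest, median and highest levels were 0.190, 4.35 and 32.2 scaled reads in the undifferentiated sample. They were 0.246, 4.27 and 28.8 scaled reads without and 2.02, 8.50 and 65.2 with pargyline. These are levels of whole windows of different lengths and do not rank the genes.

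**Figure D4:**
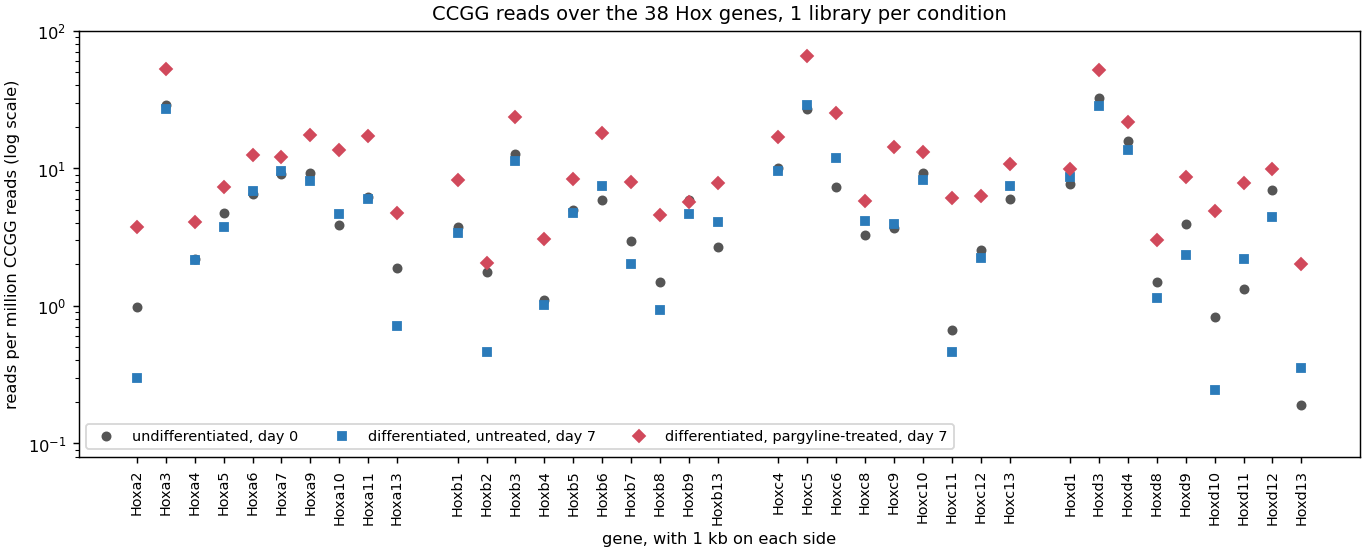
Scaled reads, the reads per 1000000 CCGG reads (log scale), are plotted for each of the 38 Hox genes with 1 kb on each side, with 1 symbol per library. The treated symbols lie between 2.02 and 65.2 scaled reads and are above the untreated symbols for all 38 genes.

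In the untreated sample, 12 of the 37 Hox genes with at least 20 reads over both samples were above and 25 below their undifferentiated level, with a median ratio of 0.891 against 0.994 over all protein-coding genes. None was at least 2 times higher, which held for 2.64% of the 19596 genes compared, and 4 were at least 2 times lower (Hoxa2, Hoxa13, Hoxb2 and Hoxd10), which also held for 2.64% of the genes compared. The number depends on the gene window, since over the sites nearest to them Hoxb2 and Hoxd10 were less than 2 times lower. The interval of the ratio lay above 1 for 5 of the 37 Hox genes, against 24.1% of all genes compared, and below 1 for 12, against 26.9%. With mapped reads as the divisor, 6 genes were above and 31 below, and Hoxa6, Hoxa7, Hoxa10, Hoxc5, Hoxc9 and Hoxd1 were those that turned.

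In the treated sample, 37 of the 38 Hox genes were above and 1, Hoxb9, below the undifferentiated level, with a median ratio of 2.10 against 1.002 over all genes. At least 2 times higher were 20 of the 38 Hox genes, against 5.19% of the 19620 genes compared, and none was at least 2 times lower, against 2.4%. The interval lay above 1 for 36 of the 38, against 27.4% of all genes compared, above 2 for 14, against 2.13%, and below 1 for none, against 26.7%. With mapped reads as the divisor, 29 genes were above and 9 below, and the 8 that turned were Hoxa5, Hoxa7, Hoxb2, Hoxc10, Hoxd1, Hoxd3, Hoxd4 and Hoxd12. By that divisor, 8 of the 38 were at least 2 times higher, and 1.99% of all genes were. Relative to the median of all genes, which moved by the same amount, the number at least 2 times higher stayed at 20. Hoxd13 reached the minimum of 20 reads only through the treated sample. Without it, 19 of 37 Hox genes were at least 2 times higher, and the interval lay above 1 for 35 and above 2 for 13. By this stricter minimum, 20 reads in the undifferentiated sample alone, 3.38% of 19068 genes were at least 2 times higher. Without any scaling, 36 of the 38 genes had more listed sites in the treated than in the undifferentiated sample, against 50.4% of all genes compared, and 36 had more raw reads, against 21.5% of all genes. Unscaled numbers treat the libraries as equally deep, whereas the treated library had fewer CCGG reads but more mapped reads (67235309 against 50959931).

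Between the day 7 samples, all 38 Hox genes were higher in the treated sample, with a median ratio of 2.25 against 1.01 over all genes, and 35 were higher with mapped reads as the divisor. At least 2 times higher were 23 of them, against 2.85% of the 19587 genes compared, and none was at least 2 times lower, against 0.75%. Hoxa2, Hoxb2, Hoxc11, Hoxd10 and Hoxd13 had under 20 reads in the untreated sample and reached the minimum through the treated one. Without them, 18 of 33 Hox genes were at least 2 times higher, against 1.81% of 19171 genes with at least 20 untreated reads. This comparison and the one with the undifferentiated sample share the treated library.

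**Figure D5:**
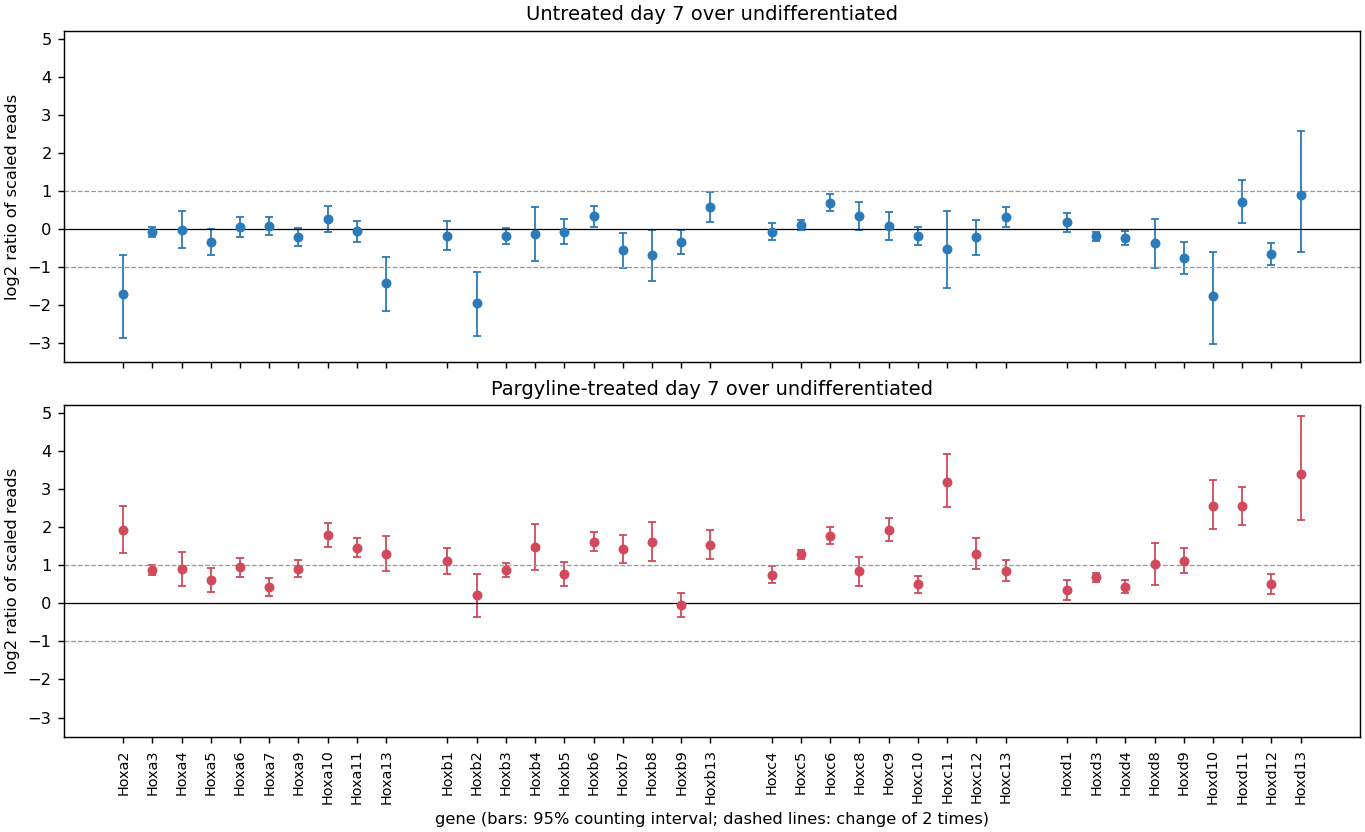
The log2 ratio of scaled reads to the undifferentiated sample is plotted for each Hox gene in the untreated (top) and treated sample (bottom), with 95% counting intervals as bars and dashed lines at a change of 2 times. In the top panel 4 of the 37 genes with enough reads lie below the lower dashed line, Hoxd13 being drawn but not counted because it had under 20 reads, and in the bottom panel 20 of the 38 genes lie above the upper one, where only 8 would with mapped reads as the divisor.

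The head-side genes, paralog groups 1 to 3, have 7 genes here. With each site given to its nearest gene of the 38, they had 2706, 2710 and 3643 reads, and ratios to the undifferentiated sample of 0.864 (interval, 0.819 to 0.911) without and 1.65 (1.57 to 1.74) with pargyline. These sums include 253, 53 and 247 reads at the sites nearest to Hoxa2, most of them outside its window. The 2 ratios are therefore not those of the gene windows alone. Hoxa3 (chr6:52169062-52213336), which is required for thymus and parathyroid formation, had 909, 995 and 1360 reads, or 28.8, 27.1 and 52.8 scaled reads. Its ratios were 0.944 (0.862 to 1.03) and 1.84 (1.69 to 2.00), the first of them 1.01 with only the sites nearest to Hoxa3 counted, and within 1 kb of its starts the treated ratio was 1.04. Hoxb3 (chr11:96323326-96347930), active in the hindbrain, had 403, 412 and 605 reads and a treated ratio of 1.84 (1.62 to 2.09), with 1.11 around its starts. At these large genes the higher level of the treated sample thus lay mostly away from the starts. Hoxd3 (chr2:74711927-74748442), a gene of the neck vertebrae, had 1019, 1036 and 1340 reads, with ratios of 0.877 (0.803 to 0.957) and 1.61 (1.49 to 1.75), where the first turned to 1.08 around its starts, and the second was 2.49 there and below 1 over the gene with mapped reads as the divisor.

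Hoxa2 and Hoxb2, which pattern the hindbrain and the neural crest, had low counts. Hoxa2 (chr6:52162417-52164831) had 31, 11 and 96 reads at 4, 1 and 8 sites, so the untreated sample was 0.306 times (0.139 to 0.626) and the treated sample 3.80 times (2.51 to 5.90) the undifferentiated sample. The sites nearest to Hoxa2 reach to the edge of the HoxA region and had 253, 53 and 247 reads, most of them outside the window of 1 kb around the gene. Their ratios of 0.181 and 1.20, the second of them below 1 with mapped reads as the divisor, therefore describe mainly the sequence beyond Hoxa2. Hoxb2 (chr11:96350525-96354012) had 56, 17 and 53 reads at 3, 2 and 5 sites, with ratios of 0.262 (0.143 to 0.457) and 1.16 (0.782 to 1.72). For Hoxb2 the treated interval included 1, and the treated ratio was 0.327 within 1 kb of its start and 0.972 over the sites nearest to it, where the untreated ratio was 0.675. In the untreated sample the windows of Hoxa2 and Hoxb2 had 1 and 2 listed sites.

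The middle genes, paralog groups 4 to 8, have 15 genes, with 2669, 3086 and 4349 reads and ratios of 0.997 (interval, 0.947 to 1.05) and 2.00 (1.90 to 2.10). Within them, HoxB and HoxC had treated ratios of 2.23 and 2.16, and HoxD had 1.46, which is below 1 with mapped reads as the divisor. Hoxb6 (chr11:96292476-96301569), a gene of the thoracic region, had 186, 273 and 464 reads, or 5.88, 7.45 and 18.0 scaled reads, and ratios of 1.27 (1.05 to 1.53) and 3.06 (2.58 to 3.65), the second of them 4.93 around its starts. Hoxc6 (chr15:102998257-103011881), also thoracic, had 232, 437 and 647 reads, with ratios of 1.62 (1.38 to 1.91) and 3.42 (2.94 to 3.99). Both genes were above the undifferentiated level in both day 7 samples.
Hoxc5 (chr15:102967443-103017429) had 846, 1055 and 1680 reads over its long span and ratios of 1.08 (0.982 to 1.18) and 2.44 (2.24 to 2.65). Counting only the sites nearest to Hoxc5, the untreated ratio was 0.704, and it was also below 1 over the whole span with mapped reads as the divisor. Hoxd4 (chr2:74711929-74729160), which takes part in patterning the neck vertebrae, had 502, 496 and 556 reads at 30, 24 and 28 sites and ratios of 0.852 (0.751 to 0.967) and 1.36 (1.20 to 1.54), the second of which is below 1 with mapped reads as the divisor.

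The tail-side genes, paralog groups 9 to 13, have 16 genes, with 5469, 5588 and 7505 reads and ratios of 0.881 (interval, 0.849 to 0.915) and 1.68 (1.63 to 1.74). The clusters differed here, with treated ratios of 2.75 (2.53 to 2.98) in HoxA, 2.32 (2.10 to 2.57) in HoxD, 1.67 (1.56 to 1.78) in HoxC and 1.17 (1.11 to 1.24) in HoxB, the last of which is below 1 with mapped reads as the divisor. In HoxB this group is 2 genes, Hoxb13 and Hoxb9, with 2479 undifferentiated reads. Their windows held only 85 and 185 of these, so the HoxB value describes mainly sequence outside the gene windows. The same reads enter the ratios of all 16 tail-side genes. Hoxa9 (chr6:52223100-52231089), known for its part in blood stem cells and leukemia, had 294, 298 and 452 reads, with ratios of 0.874 (0.742 to 1.03) and 1.89 (1.63 to 2.19). Hoxb9 (chr11:96271457-96276595), a gene of the thoracic region, had 185, 170 and 146 reads, or 5.85, 4.64 and 5.67 scaled reads, with a treated ratio of 0.968 (0.774 to 1.21). This was the lowest treated ratio of the 38 genes, and its interval included 1. It was 1.15 over the sites nearest to Hoxb9, and around its starts, where 1 site was listed in each library with 10, 20 and 13 reads, the untreated and treated ratios were 1.72 and 1.59.

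Several tail-side genes had almost no reads in the undifferentiated and untreated samples. Hoxc11 (chr15:102954427-102957708) had 21, 17 and 156 reads at 3, 2 and 15 of its sites, which is 9.11 times the undifferentiated level in the treated sample (interval, 5.76 to 15.1). Hoxd10 (chr2:74691924-74695105), a gene of lumbar motor neurons and the hindlimb, had 26, 9 and 125 reads at 2, 1 and 11 sites, with ratios of 0.299 (0.123 to 0.657) and 5.90 (3.84 to 9.38), but the untreated ratio was 0.807 over the sites nearest to it and the treated ratio 19.6 around its start, where 1 site was listed in the undifferentiated sample. Hoxd13 (chr2:74668310-74671599), which shapes the digits, had 6, 13 and 52 reads at 1, 1 and 3 sites and a treated ratio of 10.6 (4.57 to 30.3). In these 3 genes the treated sample stood apart from both others, on few reads, and Hoxd13 met the minimum of reads only through the treated sample. Over the nearest sites the treated ratios of Hoxc11 and Hoxd13 were 2.29 and 2.42.
Hoxd11 (chr2:74679557-74687016), which acts in the forearm and the kidney, had 42, 80 and 200 reads and ratios of 1.64 (1.12 to 2.45) and 5.84 (4.17 to 8.36). Hoxb13 (chr11:96194316-96197447), a gene of the prostate and the tail end, had 85, 148 and 202 reads and ratios of 1.50 (1.14 to 1.98) and 2.92 (2.25 to 3.80), the second of them 5.70 around its start. Hoxb13 stands far from the other HoxB genes, and with all sites nearest to it, most of them between genes, the ratios were 0.878 and 1.20.

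Other genes of the Hox network were taken from a list of 22, comprising the cofactors Pbx, Meis and Pknox, the upstream Cdx genes, the Evx neighbours of the clusters, and Polycomb and Trithorax genes. In the treated sample 3 of the 22 were at least 2 times above the undifferentiated level and none as far below, against 5.19% and 2.4% of all genes compared, and the median ratio of the 22 was 1.08 against 1.002 over all genes. The 3 were homeobox genes themselves. Cdx2, an activator of Hox genes in the tail region, had 65, 64 and 177 reads (3.34 times, interval 2.50 to 4.51). Evx1, next to HoxA, had 200, 207 and 364 reads (2.23 times, 1.87 to 2.67), and Evx2, next to HoxD, had 60, 74 and 159 reads (3.25 times, 2.40 to 4.45). The other 19, among them Ezh2, Suz12 and Kmt2a, had treated ratios between 0.842 and 1.44. Against the untreated sample, the same 3 genes were at least 2 times higher in the treated sample, where 2.85% of all genes were. In the untreated sample none of the 22 was 2 times higher or lower than in the undifferentiated sample.

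The lists also gave CCAGG sites, where a methylated cytosine outside CpG can be read by FspEI. The Hox clusters had 121 of 1188 motifs (10.2%) in the undifferentiated list and 481 (40.5%) in the treated list, and in the genome these shares were 6.78% and 22.5%. The CCAGG lists of the undifferentiated and untreated samples were nearly identical, with equal counts at 99.97% of their shared sites, and at CCTGG sites the counts of all 3 samples were nearly identical. The repeated counts cannot be separate measurements of each library, so no CCAGG number is given for the untreated sample, the others are given as deposited, and no comparison between samples is drawn from them. Whether they bear on the CCGG values was not tested.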

How the data were processed

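MethylRAD libraries of E14Tg2A ESCs were analysed, 1 per condition. Per the labels, FastQC 0.11.3 and Bowtie2 2.3.3 were used with the genome build GRCm38. The authors trimmed the reads, selected those containing an FspEI site, aligned them, and deposited for each site the raw count of uniquely mapped reads where it reached 5. The deposited RPM value is that count per 1000000 mapped reads, and here it gave only the mapped totals (50959931 undifferentiated, 73712891 untreated and 67235309 treated).

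Positions were checked against GRCm38, and 999631 of the 1026125 CCGG positions lay on the first base of a reference CCGG. Counts were summed over the clusters, over genes with 1 kb on each side (GENCODE M21, at least 20 reads over the samples compared), over CpG classes in 500 bp windows overlapping by 5 bp, and over paralog groups. Ratios have exact conditional binomial (Clopper-Pearson) intervals and shares have Wilson intervals, both tested on simulated data. The listed Hox sites had a median of 12 to 14 reads. With 1 library per condition, no test was made.

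The genes, lists and measures were chosen with earlier results of these data known. Genes described singly were those with the most reads (2 per cluster) and the 3 largest rises and falls against the undifferentiated sample. Sites were chosen by reads within each pattern of listing. The alternatives were other divisors, cutoffs, margins, windows and assignments of sites. 1 gene that the naming rule counts and 1 site that the site rule selects are not reported here. Python 3.11.15, pandas 2.3.3, numpy 2.4.6, SciPy 1.17.1 and matplotlib 3.10.9 were used.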

Additional observations from a re-analysis of the deposited data

Results flagged for a closer look

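Relative to the undifferentiated sample, the Hox clusters were lower in the untreated and higher in the treated sample. The log2 ratio of the treated minus that of the untreated sample was 0.95 for all 4 clusters together, 1.23 for HoxA, 0.73 for HoxB, 0.95 for HoxC and 1.004 for HoxD. Each group is 1 library, so this difference was not tested, and the ratios share the undifferentiated library. Divided by mapped reads, which multiplies the ratios of all genes alike, HoxB was below the undifferentiated sample in both. Of the genes described singly, opposite directions were found for Hoxa3 (0.96), Hoxa9 (1.11), Hoxb3 (1.06), Hoxd3 (0.88), Hoxd4 (0.67), Hoxb2 (2.15), Hoxd10 (4.30), Hoxa2 (3.63) and Hoxc11 (3.71). Divided by mapped reads, Hoxb2, Hoxd3 and Hoxd4 were below the undifferentiated level in both day 7 samples, as the median of all genes was. With CCGG reads, the treated interval of Hoxb2 and the untreated intervals of Hoxa3, Hoxa9, Hoxb3 and Hoxc11 included 1, and over the nearest sites the untreated ratios of Hoxa3 and Hoxc11 were 1.01 and 1.01, so that their directions were no longer opposite. Hoxb2 was below 1 in both day 7 samples over its nearest sites (0.675 and 0.972) and around its start (0.172 and 0.327), and Hoxd3 was above 1 in both around its starts (1.08 and 2.49). Around the start of Hoxd10, the untreated sample had no listed site. Among the genes not described singly, Hoxb7 (0.679 without and 2.69 with pargyline), Hoxb8 (0.624 and 3.08), Hoxd9 (0.593 and 2.17), Hoxd12 (0.637 and 1.43), Hoxa5 (0.788 and 1.54) and Hoxa13 (0.374 and 2.47) had an untreated interval below 1 and a treated interval above 1, of which Hoxa5 and Hoxd12 were below 1 in both divided by mapped reads. Within 1 kb of their starts, the untreated intervals of Hoxa5, Hoxb7, Hoxb8 and Hoxd9 included 1. So did the treated intervals of Hoxa13 and Hoxb8 there, and only Hoxd12 kept both intervals apart from 1. No number of genes with opposite directions is given as a result, since both ratios share the undifferentiated library.

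CCAGG sites, which the comparisons of Hox genes do not use, numbered 481 in the treated list of the Hox clusters. At CCAGG the untreated list nearly repeats the undifferentiated one, and at CCTGG all 3 lists nearly repeat each other. The repeated counts cannot be separate measurements of each library, so the samples are not compared at these sites.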

How the results depend on the processing

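The Hox level of the treated sample stayed above both others, and that of the untreated sample below the undifferentiated sample, under every divisor, cutoff, margin and site filter tried, but the size depended on the divisor. With mapped reads as the divisor, the untreated over undifferentiated, treated over undifferentiated and treated over untreated ratios were 0.726, 1.08 and 1.49. With the median ratio over common sites, the first was 0.859 and the second 1.67. With absent sites counted as 4 reads, the treated ratios were 1.55 to the undifferentiated and 1.73 to the untreated sample. With a cutoff of 10 reads, the listed sites numbered 325 undifferentiated, 336 untreated and 579 treated. The other 45 values of these results, among them the numbers of Hox genes at least 2 times higher with the minimum of 20 reads asked of the earlier sample alone (19 and 18), an alternative chosen after seeing the data, were within the counting interval or, for numbers of sites or genes, within 1.5 times. With mapped reads as the divisor, the numbers of genes fell from 20 and 23 to 8 and 16. Relative to the median of all genes they stayed at 20 and 23. For the single clusters, genes and CpG classes, 59 alternative values lay outside the counting interval and 94 within it. Those outside came mostly from sites near starts only or given to the nearest gene, and from mapped reads. No paired analysis was possible because each condition had 1 library, and for the same reason no library could be left out. Sites under 5 reads, PCR copies and the spread between cultures limit every value.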
